A study of Mus musculus with 4 samples.

Results

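Basal (myoepithelial) cells of the mouse mammary gland were taken from single-cell RNA sequencing tables of the total mammary epithelium. A barcode was counted as a basal cell when at least 4 of 7 basal genes (Krt5, Krt17, Acta2, Myl9, Tagln, Mylk and Cnn1) had a count, with at most 1 of 5 luminal progenitor (LP) genes and at most 1 of 6 mature luminal (ML) genes. This gave 3357 basal cells among 10596 barcodes. Barcodes with at most 2 of the 7 basal genes served as luminal cells, and there were 6936 of them, with no further check of their type. A further 206 barcodes had at least 4 basal genes but more than 1 LP or ML gene, and 97 had exactly 3 basal genes. The cells were thus selected on the measured counts of these 18 genes, and since every gene of a cell moves with such a choice, the values that set basal beside luminal cells are a description and carry no p-value.

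The cells came from FVB/NJ mice and were sorted as CD24+ cells lacking the lineage (Lin) markers Ter119, CD31 and CD45. Pubertal glands, at 5 weeks of age, were pooled from several mice, and adult glands, at 10 weeks, were pooled from a pair of mice in estrus and a pair in diestrus, staged by vaginal cytology. No transgene, deletion or treatment was part of any group. Each stage had 1 library, so the stages have no replicate and the mice within a pool cannot be told apart. Values are given in the order puberty, estrus and diestrus throughout. The Lin-CD24+ gate admits both epithelial lineages, and Cd24a, the gene of the sorting antigen, was itself at 490, 352 and 223 CPM (counts scaled to a common total in each class and library) in basal cells and at 1192, 512 and 595 CPM in luminal cells.

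The mammary duct is a bilayer. Luminal cells line the lumen and include the cells that make milk, while basal cells form the outer layer, rest on the basement membrane and contract when oxytocin is released during suckling, which pushes milk along the duct. Basal cells are epithelial cells that express keratins of stratified epithelia and also a contractile programme otherwise known from smooth muscle, and the basal layer is also where mammary stem cell activity has been found by transplantation.

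Basal cells made up 1053 of 5428 barcodes at puberty (19.4%, exact 95% interval 18.4 to 20.5), 1283 of 2729 in estrus (47.0%, 45.1 to 48.9) and 1021 of 2439 in diestrus (41.9%, 39.9 to 43.8). These intervals cover counting error only, and the lower share at puberty is a difference between single libraries. The summed counts of the basal cells were 3751596, 4318153 and 4618085, from tables with 10962454 to 25365324 counts. The median basal cell had 2885, 2549 and 3416 unique molecule counts (UMIs), against 4350, 3878 and 4279 in luminal cells, so basal cells were shallower in each library. Mitochondrial genes took a median of 1.17%, 0.975% and 0.700% of a basal cell's counts. Libraries of different stages shared 13 to 24 barcodes, and a second puberty table, which held 5387 of the same barcodes, was used only as an alternative.

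The basal cells carried the rule genes well above the limit in most cases. All 7 rule genes had a count in 30.4% of basal cells at puberty, 57.4% in estrus and 49.4% in diestrus, while exactly 4 had one in 10.3%, 3.43% and 3.82%. Levels beside the limit are in plain CPM, without the scaling between classes and libraries used for most other levels. Just inside the limit, cells with 4 rule genes had 5132, 8073 and 6067 CPM of Acta2. Just outside it, cells with 3 rule genes had 3365, 4918 and 4569 CPM of Acta2, from 48, 11 and 20 cells. Krt14, which encodes the keratin that pairs with keratin 5 and was no part of the rule, was at 1477, 2617 and 1929 CPM inside and at 818, 765 and 1651 CPM outside. Krt8, a luminal keratin, was at 344, 322 and 245 CPM inside and 471, 364 and 330 CPM outside. In CPM, Krt14 was thus lower and Krt8 higher just outside the limit in each library. A Krt8 count was seen in 62.0%, 38.6% and 48.7% of cells inside and in 70.8%, 36.4% and 40% outside. Other markers kept no single direction. Krt17 at puberty was at 990 CPM inside and 2339 CPM outside. Krt18 was at 152, 182 and 76.2 CPM inside and 169, 255 and 34.7 CPM outside. Trp63 was at 103, 116 and 42.3 CPM inside and 89.2, 72.9 and 122 CPM outside. An LP rule gene had a count in 9.50%, 4.83% and 6.76% of basal cells, against 55.5%, 49.6% and 54.6% of luminal cells, and an ML rule gene in 10.7%, 7.87% and 9.21%, against 69.0%, 75.3% and 68.4%. The rule caps these genes in basal cells and not in luminal cells. These gaps thus restate the rule in part and are no check of the label.

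Acta2, which encodes smooth muscle actin, had a count in every basal cell. Its level was 11644, 13550 and 10868 CPM in basal cells and 22.2, 28.9 and 36.3 CPM in luminal cells. Myl9, the regulatory light chain of smooth muscle myosin, was at 2173, 2557 and 1994 CPM against 2.94, 6.11 and 5.04 CPM. Tagln (transgelin, an actin-binding protein) was at 2917, 4034 and 3480 CPM against 12.04, 8.94 and 13.3 CPM. For these 3 contractile genes all basal values stood far above all luminal values. Mylk, the kinase that phosphorylates the light chain and so starts contraction, was at 330, 570 and 387 CPM against 0.705, 0.596 and 1.04 CPM, and had a count in 51.7%, 72.7% and 67.4% of basal cells. Cnn1 (calponin 1, which binds actin and myosin) was at 1791, 2374 and 1473 CPM against 2.35, 3.88 and 4.89 CPM. The keratin genes of the rule went the same way. Krt5 was at 425, 668 and 498 CPM against 2.99, 1.34 and 10.8 CPM, and Krt17 at 3914, 4084 and 3422 CPM against 14.9, 7.45 and 18.4 CPM. Over the 7 rule genes the median log2 ratio of basal to luminal cells was 7.95, 8.66 and 7.92 in the 3 libraries, which restates the rule.

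**Figure D1:**
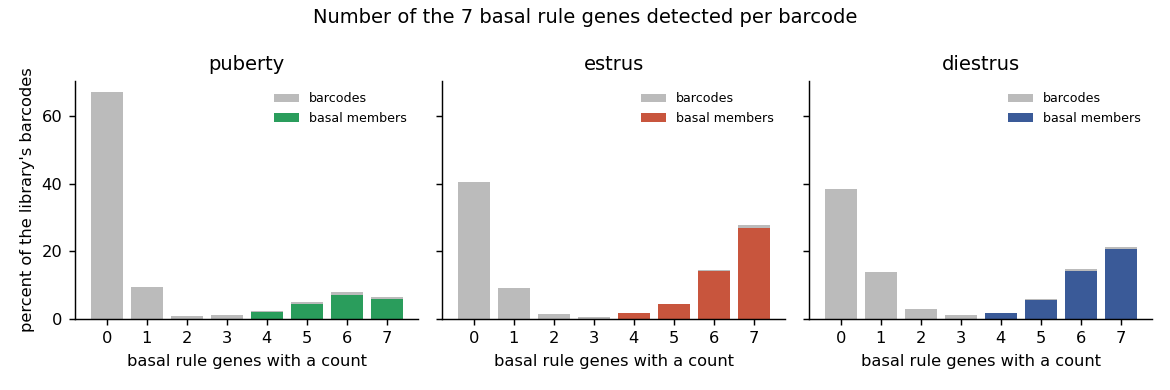
Number of the 7 basal rule genes with a count in a barcode (horizontal axis) against the percent of a library's barcodes (vertical axis), in 1 panel each for puberty, estrus and diestrus. Grey bars are all barcodes and coloured bars are the basal cells, which begin at 4 genes and are most often at 7 in estrus (57.4% of basal cells) and diestrus (49.4%).

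Over all genes, 7159 had a mean of at least 10 CPM over the basal and luminal sums and were considered. A gene was called higher in basal cells when its log2 ratio to luminal cells was at least 1 in all 3 libraries, and lower when it was at most -1 in all 3. By this count 615 genes (8.59% of those considered) were higher and 710 (9.92%) were lower, and 485 (6.77%) were higher than both LP-type and ML-type cells, which are luminal cells with at least 3 rule genes of that type and at most 1 of the other. The median log2 ratio over all considered genes was -0.08. These shares stand beside the counts of the gene lists that follow, and since the rule used the same contrast nothing is read from the difference. Ratios are on the log2(CPM + 1) scale and are given as the mean ± SD over the 3 libraries.

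The contractile genes outside the rule were mostly higher in basal cells. Of 24 listed genes 20 were considered, 16 were higher and none was lower, with a median log2 ratio of 3.22. Tpm2 (beta-tropomyosin, which lies along the actin filament) was at 2819, 4070 and 2526 CPM in basal cells and at 20.3, 14.3 and 11.4 CPM in luminal cells, a log2 ratio of 7.59 ± 0.51 (SD, n = 3 libraries). Its basal and luminal values were far apart in each library. Actg2 (enteric smooth muscle actin) was at 460, 256 and 462 CPM against 1.06, 0.894 and 1.19 CPM, a ratio of 7.54 ± 0.40, and was seen in 46.1%, 37.5% and 51.2% of basal cells. Myh11 (smooth muscle myosin heavy chain) was at 440, 487 and 290 CPM against 0.998, 1.64 and 3.41 CPM, a ratio of 7.12 ± 0.94. Both are hallmarks of differentiated smooth muscle. Other members with high basal levels are made by many cell types, and their ratios were smaller. Myl6, a myosin light chain of smooth muscle and non-muscle cells, was at 3372, 3107 and 2814 CPM against 1188, 854 and 904 CPM (log2 ratio 1.67 ± 0.18, SD, n = 3), and 24.2% of its transcript ends matched other genes, which makes its level less certain. Tpm1 (alpha-tropomyosin) had a ratio of 2.82 ± 0.25 and Csrp1, a LIM protein of actin bundles, 3.28 ± 0.70. Cnn3, Actn4, Tpm4 and Lpp were called neither way, with ratios of 0.57, 0.46, 1.05 and 0.95. Des, Synpo2 and Kcnmb1 were among the genes below the level filter. Desmin, encoded by Des, is the intermediate filament of muscle and was at 2.71, 12.6 and 4.22 CPM in basal cells.

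Smooth muscle genes are known targets of serum response factor, which binds a DNA element called the CArG box. Srf was at 28.4, 25.5 and 22.8 CPM in basal cells and at 16.6, 12.4 and 9.63 CPM in luminal cells. Its muscle coactivator Myocd had a count in 0 of 3357 basal cells, which allows up to 0.0894% of cells with a UMI and sets no limit on cells that express it at a low level, and the related coactivators Mkl1 and Mkl2 were at 9.21, 10.2 and 8.24 CPM and at 2.44, 3.06 and 2.75 CPM. RefSeq promoter windows (assembly GRCm38.p6, 250 bases before to 50 after the start) were matched for 24 of the 29 contractile genes, those of the rule included. Exact matches to the CArG consensus were counted on both strands, so boxes that depart from it by a base are missed. A match lay in the windows of 4 of these 24 (16.7%), in 19 of 439 genes higher in basal cells (4.33%), in 9 of 516 genes lower in them (1.74%) and in 488 of all 27025 genes (1.81%). The letters GGAATG, a core of TEAD sites, were in 10 of the 24 contractile windows (41.7%) and in 4481 of all genes (16.6%). GGAATG was in 79 of the 439 genes higher in basal cells (18%) and in 102 of the 516 genes lower in them (19.8%). It was thus no more common in the higher genes than in the lower ones. The letters CACCTG, an E-box bound by Snail family repressors, were in 5 of the 24 (20.8%), in 22.6% of all genes and in 20.3% of considered genes. They were in 22.8% of the genes higher in basal cells and in 169 of the 516 genes lower in them (32.8%). No full copy of one of these motifs can lie inside another. A match is a run of letters and was not tested as a binding site. The 4 contractile genes with a CArG box are shown by the 250 bases before their start, 5′ to 3′ on the strand of the gene, with the box in capitals, because they are the contractile promoters in which the element was found.
Myl9 (chr2:156775214-156775463, plus strand): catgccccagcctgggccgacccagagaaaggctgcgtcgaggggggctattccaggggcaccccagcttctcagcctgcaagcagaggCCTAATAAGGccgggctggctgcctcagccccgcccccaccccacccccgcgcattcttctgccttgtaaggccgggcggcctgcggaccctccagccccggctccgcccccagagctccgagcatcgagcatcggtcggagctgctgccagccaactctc
Cnn2 (chr10:79988350-79988599, plus strand): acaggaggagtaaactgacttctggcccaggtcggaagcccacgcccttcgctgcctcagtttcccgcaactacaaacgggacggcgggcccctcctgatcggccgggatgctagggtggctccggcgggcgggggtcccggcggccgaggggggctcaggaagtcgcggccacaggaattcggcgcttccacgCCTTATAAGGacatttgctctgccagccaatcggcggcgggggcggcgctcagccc
Vcl (chr14:20929148-20929397, plus strand): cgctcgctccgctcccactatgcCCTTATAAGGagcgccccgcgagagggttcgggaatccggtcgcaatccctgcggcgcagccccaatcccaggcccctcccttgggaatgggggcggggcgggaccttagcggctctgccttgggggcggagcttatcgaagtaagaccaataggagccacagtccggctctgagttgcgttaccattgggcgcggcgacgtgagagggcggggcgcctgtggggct
Myl6 (chr10:128493010-128493259, minus strand): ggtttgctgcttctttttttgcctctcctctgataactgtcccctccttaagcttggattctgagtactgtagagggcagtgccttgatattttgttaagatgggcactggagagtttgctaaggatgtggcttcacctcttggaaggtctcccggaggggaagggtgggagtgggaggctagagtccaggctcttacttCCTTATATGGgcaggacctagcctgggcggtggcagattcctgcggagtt

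In these sequences the first base of the box stood at -161 in Myl9, -56 in Cnn2, -227 in Vcl and -50 in Myl6, counted from the start of that window. Myl6 has another window in RefSeq, at another start (chr10:128493837-128494136), which held no match. That window lay nearer the annotated start of the gene, at 128494145 on the minus strand. The Myl6 window shown lay further inside the gene. The genes differed in how far basal and luminal levels lay apart. Myl9 is a rule gene with the values given above. Cnn2 (calponin 2) was at 350, 339 and 352 CPM in basal cells against 53.8, 34.0 and 29.8 CPM in luminal cells, a log2 ratio of 3.16 ± 0.43 (SD, n = 3). Vcl (vinculin, which links actin to adhesions) was at 49.3, 42.8 and 34.6 CPM against 23.1, 13.9 and 11.3 CPM, a ratio of 1.39 ± 0.28.

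Contraction is triggered through surface receptors. Oxtr, the oxytocin receptor, was higher in basal cells. It was at 68.0, 248 and 113 CPM in basal cells and at 2.05, 10.1 and 10.97 CPM in luminal cells, a log2 ratio of 4.08 ± 0.72 (SD, n = 3). It was seen in 15.8%, 50.4% and 36.2% of basal cells, so its estrus value was the highest in level and in share of cells. Among the receptors below the filter, Lpar1 was at 8.13, 4.49 and 3.17 CPM in basal cells and S1pr3 at 2.98, 3.47 and 0.845 CPM, and the alpha-adrenergic receptor gene Adra1a was seen in 0 of 3357 basal cells.

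The keratins split by lineage, with 3 of 9 considered genes higher in basal cells, 4 lower and Krt10 and Krt6a neither. Krt14 was at 4952, 6323 and 3706 CPM in basal cells and at 22.4, 19.98 and 81.8 CPM in luminal cells, a log2 ratio of 7.15 ± 1.46 (SD, n = 3). It was seen in 90.9%, 96.6% and 97.0% of basal cells and in 3.55%, 6.91% and 10.0% of luminal cells. Since Krt14 was outside the rule, this share bears on the label, although 17.2% of the Krt14 transcript end matched the rule gene Krt17. Krt15, known from basal layers of other epithelia, was at 785, 297 and 1130 CPM against 33.8, 5.52 and 37.2 CPM, a ratio of 4.97 ± 0.51, and was seen in 43.8%, 25.9% and 50.1% of basal cells. Krt23 had a ratio of 5.29. The keratins of simple epithelia went the other way. Krt8 was at 572, 577 and 393 CPM in basal cells and at 5683, 4180 and 3056 CPM in luminal cells, a ratio of -3.04 ± 0.24, and yet had a count in 67.5%, 74.4% and 67.9% of basal cells. Krt18, the partner of keratin 8, had a ratio of -4.87, Krt19 of -5.26 and Krt7 of -5.58.

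Basal cells sit on laminin through integrins and hemidesmosomes, and 6 of 13 considered adhesion genes were higher in them, with 2 lower. Itga6, the integrin subunit of hemidesmosomes that is also used for sorting basal cells, was at 258, 207 and 152 CPM in basal cells and at 65.2, 43.8 and 34.4 CPM in luminal cells (log2 ratio 2.10 ± 0.13, SD, n = 3). Itgb1, the gene of CD29, was at 261, 242 and 186 CPM against 89.4, 90.2 and 75.6 CPM, a ratio of 1.41. Luminal cells thus also had clear Itgb1 counts. Col17a1, a transmembrane collagen of hemidesmosomes, had a ratio of 5.67, Cdh3 (P-cadherin) 4.50 and Gja1 (connexin 43, a gap junction protein) 4.28. The lower genes were Epcam and Cdh1 (E-cadherin, ratio -1.84). Epcam was at 781, 484 and 468 CPM against 2750, 3041 and 2068 CPM, a ratio of -2.20 ± 0.42, and was still seen in 78.2%, 70.5% and 67.5% of basal cells. Cd24a, with a ratio of -1.08 (range -1.41 to -0.54), was called neither way. The other hemidesmosome genes of the list, Itgb4, Plec and Dst, were also called neither way, so the complex was not higher as a whole. At puberty Itgb4 was seen in 3.32% of basal and 6.19% of luminal cells, Plec in 11.5% and 13.1%, and Dst in 28.3% and 18.1%.

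Of the basement membrane genes, 12 of 14 considered were higher in basal cells and none was lower, with a median log2 ratio of 3.56. Col4a1 and Col4a2 encode the chains of the collagen IV network. Col4a1 was at 371, 137 and 208 CPM in basal cells and at 3.93, 5.37 and 3.56 CPM in luminal cells, a ratio of 5.40 ± 0.91 (SD, n = 3), and Col4a2 was at 323, 96.7 and 118 CPM against 2.05, 1.64 and 1.33 CPM, a ratio of 5.87 ± 0.78. Lamb3, a chain of laminin 332, the ligand of hemidesmosomes, was at 113, 190 and 128 CPM against 13.2, 17.7 and 12.9 CPM, a ratio of 3.19 ± 0.17. Lama5 and Lamb2, chains of other laminins, were called neither way, with ratios of -0.88 and 0.14. Lama5 was at 41.7, 17.3 and 15.4 CPM in basal cells against 62.4, 59.5 and 20.01 CPM in luminal cells.

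Of the genes of interstitial matrix, usually credited to fibroblasts, 11 of 13 considered were higher in basal cells and none was lower, with a median log2 ratio of 4.10. Sparc, a collagen-binding matrix protein, was at 1561, 1971 and 1626 CPM in basal cells and at 16.3, 93.0 and 19.1 CPM in luminal cells, a ratio of 5.74 ± 1.17 (SD, n = 3). Postn (periostin) was at 469, 637 and 295 CPM against 3.23, 10.7 and 6.67 CPM, a ratio of 5.94 ± 0.78. Serpinh1, the collagen chaperone of the endoplasmic reticulum, had a ratio of 3.02, and Lgals1 (galectin 1) 4.25. Mmp14 and Timp2, a membrane protease and an inhibitor that work together on matrix turnover, had ratios of 0.19 and 0.15. The summed level of 8 fibroblast markers, in plain CPM, was 255, 325 and 248 CPM in basal cells, nearly all of it Dcn (249, 294 and 241 CPM), which luminal cells had too, at 222, 298 and 465 CPM. Of the defining markers of fibroblasts, Dpt had no count in basal cells of any library and Pdgfra had 0, 1 and 1 counts, and 0, 3 and 1 basal cells had 3 or more of the 8. Col3a1, a fibrillar collagen of fibroblasts, was at 0.542, 2.86 and 1.27 CPM in basal cells against 13.2, 105 and 12.3 CPM in luminal cells, a ratio of -3.51 that came to 0.037 when luminal cells were limited to those with at least 3 LP or 3 ML genes.

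**Figure D2:**
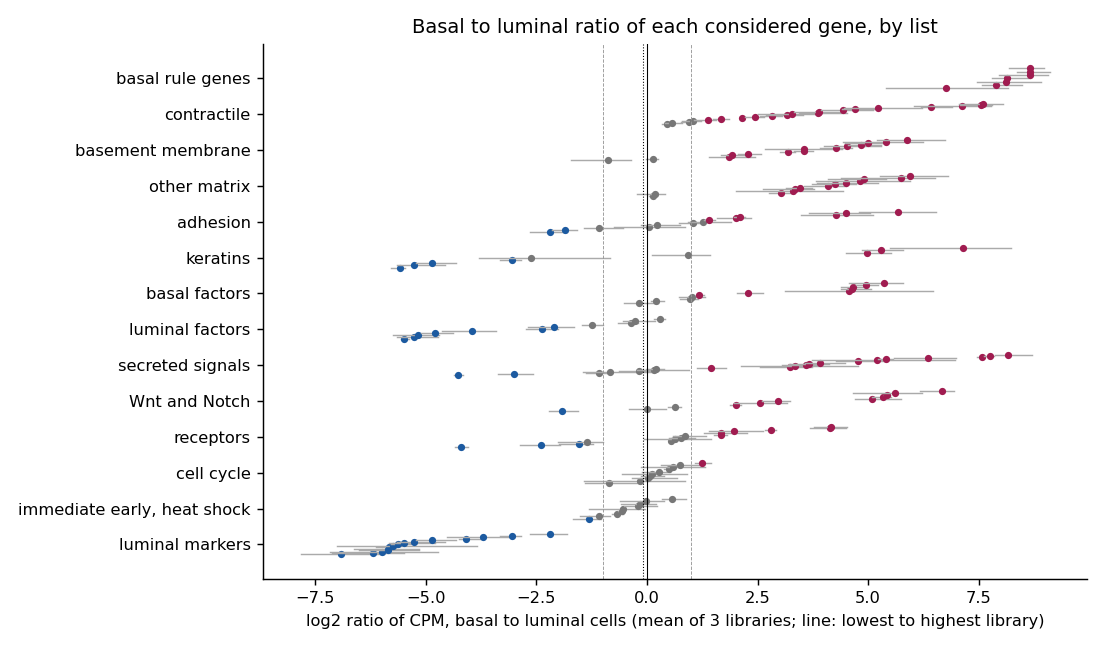
Log2 ratio of CPM in basal to luminal cells (horizontal axis) for each considered gene, by list, with the mean over 3 libraries as a point and the lowest to highest library as a line. Red points were higher in basal cells, blue points lower and grey points neither, dashed lines mark -1 and 1 and the dotted line the median gene (-0.08). Most contractile and matrix genes lie above 1 and all luminal markers below -1, while the keratins lie on both sides.

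Transcription factors of the basal state were higher in basal cells for 7 of 11 considered genes, with none lower and a median log2 ratio of 2.28. Trp63, the p63 factor that basal epithelia need, was at 75.3, 75.3 and 72.2 CPM in basal cells and at 1.53, 1.04 and 1.78 CPM in luminal cells, a ratio of 4.95 ± 0.25 (SD, n = 3). It was seen in 15.7%, 20.3% and 25.5% of basal cells and in 0.262%, 0.504% and 0.742% of luminal cells. Trp63 thus marked the same cells at a level that left most of them without a count. Snai2, a Snail family repressor tied to the basal state, had a ratio of 4.64, Irx4 of 5.36, Mef2c, a partner of muscle gene control, of 4.65, and Tead1, the DNA-binding partner of YAP, of 2.28. Id4, an inhibitor of helix-loop-helix factors, was at 10.8, 21.8 and 217 CPM against 0.352, 0.298 and 1.48 CPM, a ratio of 4.57 ± 1.71, with the highest ratio in diestrus. Nfib and Sox10 stood at like levels in both classes. Nfib was at 183, 146 and 166 CPM against 140, 136 and 151 CPM, and Sox10 at 19.8, 14.3 and 29.8 CPM against 28.7, 17.4 and 24.8 CPM, ratios of 0.21 and -0.18. Wwtr1 (TAZ) had a ratio of 1.01 with a range of 0.73 to 1.32.

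Transcription factors of the luminal lineages mirrored this, with 7 of 11 considered genes lower in basal cells, none higher and a median log2 ratio of -2.38. Elf5, which drives the alveolar and secretory programme, was at 4.33, 2.45 and 3.38 CPM in basal cells and at 138, 182 and 147 CPM in luminal cells, a ratio of -5.17, and Foxa1, a partner of the estrogen receptor, had a ratio of -4.79. Elf3, an epithelial ETS factor, was at 23.8, 47.5 and 23.9 CPM against 158, 151 and 95.7 CPM. Gata3, a luminal fate factor, was less one-sided, at 56.3, 74.0 and 61.9 CPM against 113, 207 and 150 CPM, and with a range of -1.47 to -0.99 it narrowly missed the call. Tfap2b was at 62.6, 104 and 84.3 CPM against 91.9, 92.1 and 117 CPM, and Cebpb at 19.8, 28.1 and 173 CPM against 17.7, 22.2 and 131 CPM, so neither separated basal cells from the luminal sum. That sum mixes types, and the Cebpb ratio was 1.80 to 3.16 against ML-type cells and -0.90 to -0.66 against LP-type cells.

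The Wnt and Notch genes higher in basal cells included ligands and secreted inhibitors. Of 22 listed genes 11 were considered, 8 were higher in basal cells and Notch1 was lower, with a median log2 ratio of 2.97. Wif1, a secreted Wnt inhibitor, was at 303, 324 and 285 CPM in basal cells and at 1.53, 1.64 and 2.96 CPM in luminal cells, a ratio of 6.68 ± 0.44 (SD, n = 3). The Wnt ligand gene Wnt10a was at 52.3, 44.3 and 87.0 CPM with a ratio of 5.43 ± 0.07, and Wnt6 at 91.8, 73.0 and 98.8 CPM with a ratio of 5.34. Dll1, a Notch ligand, was at 129, 163 and 69.1 CPM with a ratio of 5.60. The receptor Notch1 went the other way, at 10.3, 4.69 and 4.86 CPM against 32.2, 25.3 and 21.9 CPM, a ratio of -1.91. The ligand gene Dll1 and the receptor gene Notch1 were thus higher in opposite classes. The other listed Notch ligand and receptor genes, Jag1, Jag2 and Notch4, were below the level filter. Lef1, a Wnt target and effector, had a count in 0 of 3357 basal cells. At puberty it also had a count in 0 of 4199 luminal cells, so its absence did not tell the classes apart there.

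Other secreted factors gave some of the widest gaps between basal and luminal cells, with 13 of 20 considered genes higher, 2 lower and a median log2 ratio of 3.47. Cxcl14, a chemokine, was at 2012, 4193 and 2092 CPM in basal cells and at 7.22, 9.09 and 8.004 CPM in luminal cells, a ratio of 8.17 ± 0.46 (SD, n = 3), and was seen in 94.9%, 98.2% and 98.04% of basal cells. No gene outside the rule had a higher smallest ratio. Igfbp2, a binding protein of insulin-like growth factors, was at 727, 536 and 544 CPM against 2.29, 1.34 and 1.78 CPM, a ratio of 7.75 ± 0.12, and Il17b, a cytokine, was at 697, 542 and 550 CPM with a ratio of 7.56 ± 0.10. Igfbp5, a relative of Igfbp2, did not separate the classes, at 872, 490 and 492 CPM against 708, 500 and 379 CPM. Nrg1, the ERBB ligand, was at 113, 27.3 and 35.3 CPM against 1.70, 0.149 and 0.889 CPM, a ratio of 4.76. Ptn (pleiotrophin) was lower in basal cells, at 1051, 694 and 656 CPM against 6278, 7215 and 5581 CPM, a ratio of -3.01, and Edn1, which encodes the contraction-inducing peptide endothelin 1, was at 0.813, 0 and 0.634 CPM against 31.4, 18.5 and 32.6 CPM.

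Growth factor receptors divided in a way that can be set beside the ligands. Of 14 considered genes 6 were higher in basal cells and 3 lower, with a median log2 ratio of 0.81. Egfr had a ratio of 1.98, Axl, a receptor tyrosine kinase, 4.16, Tgfbr3, a coreceptor for TGF-beta, 4.14, Lrp1, an endocytic receptor, 2.80, Igf1r 1.68 and Lifr 1.68. Of these 6, Axl, Tgfbr3 and Lrp1 were higher than both LP-type and ML-type cells, while Egfr and Igf1r missed the limit against LP-type cells and Lifr against ML-type cells. Erbb3 and Erbb2, which bind or pair on neuregulin, had ratios of -4.20 and -2.39, and Fgfr2, the receptor for stromal fibroblast growth factors, -1.54. The neuregulin gene Nrg1 and its receptor genes were thus higher in opposite classes. Fgfr1 was called neither way, at 136, 132 and 90.6 CPM in basal cells and with a ratio of 0.55.

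**Figure D3:**
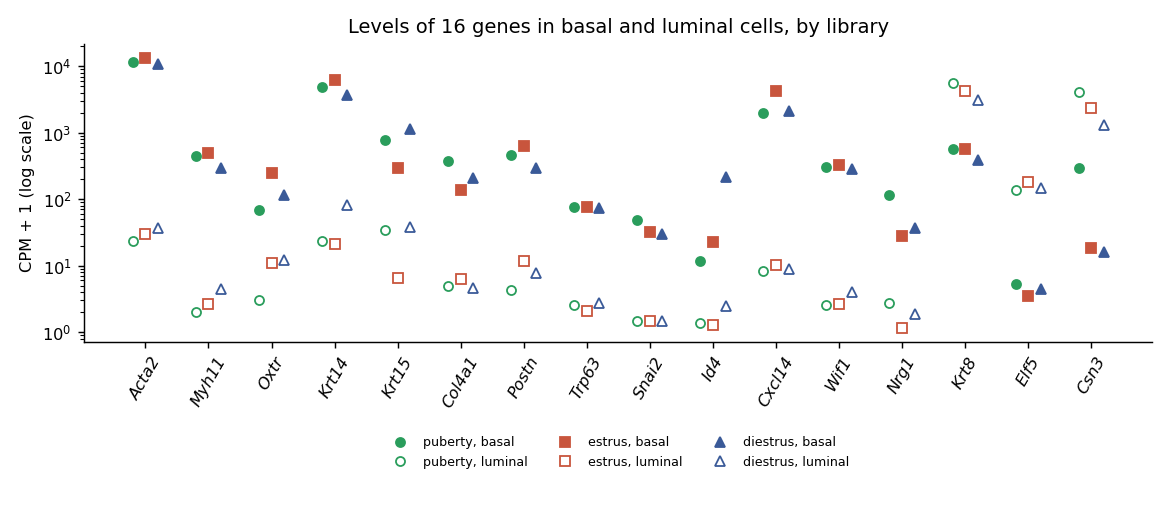
Levels of 16 genes (CPM + 1, log axis) in basal cells (filled points) and luminal cells (open points), with 1 point per library for puberty, estrus and diestrus. Filled points lie above open ones for the 13 genes from Acta2 to Nrg1 and below them for Krt8, Elf5 and Csn3, and Csn3 has its highest basal level at puberty (290 CPM).

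The 12 genes outside the rule with the highest smallest ratio were Cxcl14, Igfbp2, Il17b, Actg2, Tpm2, Spon2, 1500015O10Rik, Lmo1, Nexn, Wif1, Myh11 and Gm21190. Spon2, a secreted matrix protein, was at 363, 335 and 388 CPM in basal cells, with a log2 ratio of 6.61. Lmo1, a LIM-domain transcription cofactor, had a ratio of 6.46, Nexn, an actin-binding protein of muscle, 6.43, and 1500015O10Rik, at 977, 914 and 927 CPM, 6.53. The ratio of Gm21190 was 6.21, but 93.4% of the sequence at its transcript ends matched other genes, so its counts are uncertain. A published list from separate, sorted adult basal cells that the study used had 195 of 200 genes in the tables, the 7 rule genes among them. Of these, 82 were below the level filter. A listed gene can pass that filter through its basal level alone, so the counts are a description and no check. Of 113 considered, 112 were higher in basal cells and 1, Tgfb3, was called neither way, at 24.1, 41.4 and 33.6 CPM against 64.3, 82.1 and 63.3 CPM. Of 123 considered genes of the matching luminal list, which holds the 11 luminal rule genes, 122 were lower in basal cells, Rspo1 being the other one. A further 71 genes of that list were below the filter.

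The 8 genes outside the rule with the lowest largest ratio included Spp1 and casein genes. Spp1 (osteopontin) was at 120, 27.9 and 36.5 CPM in basal cells and at 15145, 7426 and 6791 CPM in luminal cells, a log2 ratio of -7.49. Csn2 (beta-casein) was at 32.0, 5.71 and 5.28 CPM against 4188, 1496 and 707 CPM, a ratio of -7.20. Csn1s2a was at 58.5, 6.73 and 3.17 CPM against 6726, 2767 and 453 CPM, a ratio of -7.36. For all 3 genes the level in basal cells was highest in the library in which the luminal level was highest too, and free RNA from luminal cells was not tested as its source. AW112010, Lrg1, Fam25c, Gpx3 and Hp completed these 8 genes, with ratios of -7.30, -6.83, -6.45, -6.68 and -6.52. Most of these genes were low in 1 luminal type as well. Against LP-type cells the ratios ranged from -2.58 to -0.04 for AW112010, -1.39 to -0.69 for Fam25c and -0.98 to -0.09 for Gpx3. Against ML-type cells they ranged from -2.20 to -1.13 for Spp1, -1.88 to -0.62 for Csn2 and -2.17 to -0.87 for Csn1s2a. Lrg1 and Hp were well below both types. All 15 considered luminal markers were lower than in the luminal sum, with a median ratio of -5.63. Against a single luminal type this did not hold for each of them. The Areg ratio was 0.24 to 1.32 against LP-type cells and -7.37 to -5.75 against ML-type cells. The Csn3 ratio was -8.68 to -5.34 against LP-type cells and -1.69 to 1.83 against ML-type cells. In plain CPM, the 16 listed luminal markers summed to 2458, 2063 and 1553 CPM in basal cells against 44718, 40299 and 27572 CPM in luminal cells.

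Markers of cell types outside the epithelium were at low levels in basal cells. In plain CPM, the 8 pericyte markers summed to 10.4, 42.4 and 16.02 CPM, with Mcam the highest at 6.66, 29.6 and 9.96 CPM, and 0, 5 and 3 basal cells had 3 or more of them. Pericytes are the nearest source of smooth muscle transcripts in the gland. The 8 endothelial markers summed to 9.60, 12.5 and 8.23 CPM and the 8 immune markers to 1.33, 2.78 and 1.52 CPM, with Ptprc, the gene of the sorting antigen CD45, at 0 in all 3 libraries and no basal cell with 3 markers of either list. The 6 Schwann cell markers summed to 158, 358 and 165 CPM, mostly Pmp22, a myelin protein gene that epithelia also use. Scn7a, another of them, was at 29.8, 119 and 37.8 CPM, and 0, 12 and 3 basal cells had 3 or more. Against luminal cells, Pmp22 and Scn7a were higher and Notch3, a pericyte marker, was lower. Of 10 cell cycle genes Rrm2 alone was higher in basal cells, with 21.8% of its transcript ends matching other genes, and of 9 considered stress genes Jun alone was lower. The levels were highest in estrus for the pericyte and Schwann lists, and their part in estrus values was not tested.

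Between stages each value compares single libraries of pooled glands, so no test was made. Of 6842 genes considered in basal cells, 392 (5.73%) had a log2 ratio of diestrus to estrus of at least 1 and 192 (2.81%) of at most -1. At puberty 110 genes (1.61%) were at least 1 above both adult libraries and 72 (1.05%) at least 1 below both. The direction of these counts depends on scaling: 67.1% of the genes past the limit were higher in diestrus than in estrus, against 50.5% with plain CPM and 56.2% with a mean over cells, and 60.4% of those at puberty were higher, against 42.7% with plain CPM, 35.1% with a mean over cells, 47.1% with cells thinned to 1500 UMIs, 49.2% without cycling cells and 52.9% with the second puberty table. The median gene moved by 0.04 from estrus to diestrus, and by -0.11 with plain CPM.

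In diestrus, Id4 stood out among the listed genes, with a log2 ratio of 3.25 to estrus. It was seen in 3.32%, 6.94% and 45.7% of basal cells, against 0.119%, 0.144% and 0.668% of luminal cells, so the share was highest in diestrus in both classes. Cebpb, a bZIP factor of mammary differentiation, had a ratio of 2.58 and was seen in 5.89%, 10.1% and 48.2% of basal cells, and its luminal level was highest in diestrus as well. Krt15 had a ratio of 1.93 and Lgals1 of 1.75. Cell cycle genes were higher in diestrus for 9 of 10. Leaving out cycling cells, which are defined by these same genes and so must lower them, left 3. Cdk1, the mitotic kinase, was at 67.4, 40.6 and 152 CPM in basal cells and at 67.3, 60.5 and 80.8 CPM in luminal cells, and Top2a, the topoisomerase of dividing cells, at 26.8, 17.1 and 60.2 CPM in basal cells, ratios of 1.88 and 1.75. Cells with at least 3 of the 10 cell cycle genes made up 13.01% (exact 95% interval 11.04 to 15.2), 5.46% (4.28 to 6.84) and 24.6% (22.0 to 27.3) of basal cells, and 8.55%, 6.26% and 15.6% of luminal cells. Among genes lower in diestrus, Oxtr had a ratio of -1.13. Oxtr was no longer past the limit of -1 with a mean over cells, with thinned cells or without cycling cells. Postn, Timp3, Dll1, Lgr5, Ctgf and Cxcl14 were also past -1 in the main values, Cxcl14 only just, at -1.003. In the same alternatives 1 secreted signal gene was past the limit in each, against 3 in the main values.

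At puberty, Csn3 (kappa-casein) was at 290 CPM in basal cells, against 17.5 CPM in estrus and 14.8 CPM in diestrus, log2 ratios of 3.97 and 4.21. In luminal cells it was at 4164, 2365 and 1308 CPM, and it was seen in 17.5%, 3.59% and 4.11% of basal cells. The Csn3 ratio of basal to ML-type cells ranged from -1.69 to 1.83 over the libraries. The log2 ratio of basal to luminal cells at puberty was -3.84 for Csn3, while for the caseins Csn2 and Csn1s2a it was -6.99 and -6.82 in the same library, so the milk genes did not keep 1 ratio between the classes. Areg, an ERBB ligand needed for ductal growth in puberty, was at 59.6, 5.71 and 10.3 CPM in basal cells and at 2144, 408 and 1030 CPM in luminal cells. LP-type cells had less Areg than basal cells, with log2 ratios of basal to LP-type cells of 0.24 to 1.32. Col4a2 was higher than in both adult libraries by 1.73 and 1.45 and Nrg1 by 2.01 and 1.66, and with Lama5 and Col7a1 it was among 3 basement membrane genes past the limit. Lower at puberty were 4 stress genes, Jun, Fosb, Fos and Egr1. Fos was at 1204, 7087 and 4305 CPM in basal cells and at 2979, 7284 and 5112 CPM in luminal cells, ratios of -2.56 and -1.84. Egr1 was at 194, 912 and 566 CPM in basal cells. Both classes of cells thus had their lowest Fos level in the puberty library, and all of these are immediate early genes.

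**Figure D4:**
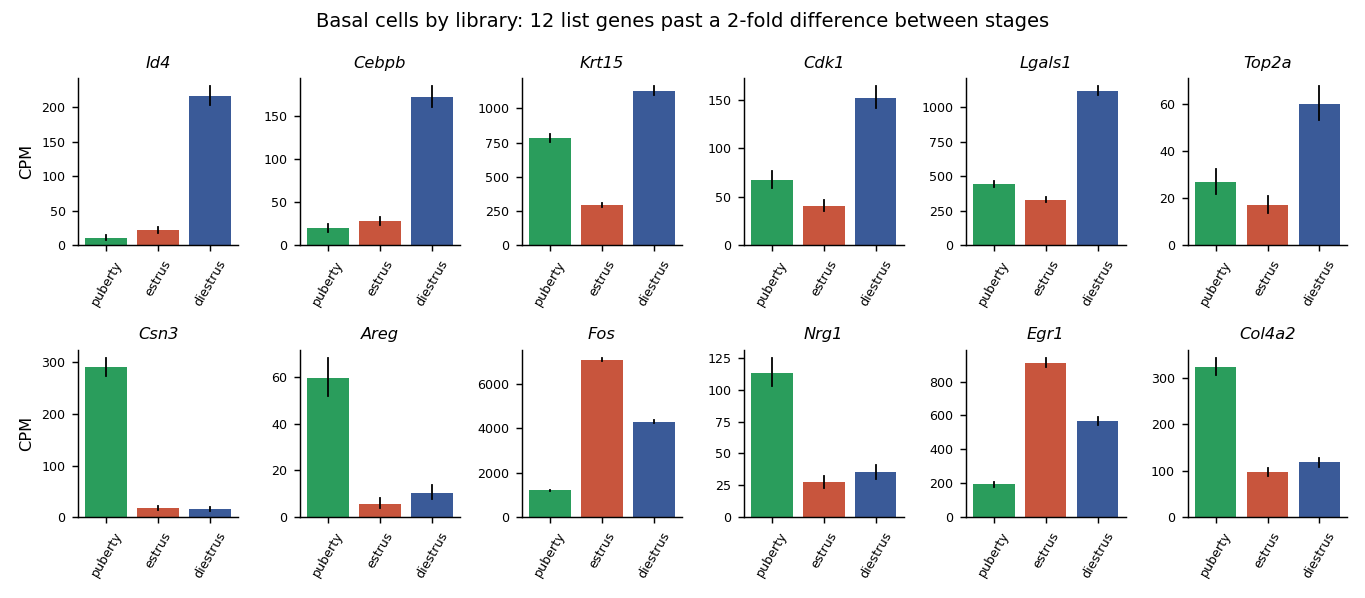
Levels in basal cells (CPM, bars from 0) of 12 list genes past the limit between stages, with 1 bar per library for puberty, estrus and diestrus and a line for the exact 95% Poisson interval, which covers counting error only. Id4 and Cebpb are highest in diestrus, Csn3 and Areg at puberty, and Fos and Egr1 are lowest at puberty.

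Basal cells also varied among themselves. Variation was described by the Fano factor, the variance over the mean of a gene's counts across cells thinned to 1500 UMIs, which is about 1 when sampling is the sole source. Over 1730 genes the median was 1.29, 1.09 and 1.07, and 49 genes were at 2 or above in all 3 libraries. Slpi, a secreted protease inhibitor, led with 31.1, 17.97 and 21.4. It was seen in 42.3%, 73.6% and 55.6% of thinned basal cells and was at 3737, 4672 and 2346 CPM in basal cells, against 1436, 955 and 703 CPM in luminal cells. Chil1, a chitinase-like secreted protein, had 8.45, 9.57 and 10.8 and was seen in 22.2%, 18.2% and 26.0% of thinned basal cells. Ccl2, a chemokine, had 5.00, 4.26 and 5.30 with a count in 9.30%, 6.54% and 5.97% of them. These genes were thus high in a minority of basal cells, apart from Slpi. Krt15 was uneven as well, with 6.05, 4.13 and 5.36 and a count in 35.7%, 18.6% and 38.2% of thinned cells. Among rule genes, Acta2 had 8.09, 6.57 and 6.68 and Krt17 10.9, 8.06 and 5.89, with a count in 99.7%, 100% and 100% and in 80.7%, 88.5% and 81.7% of thinned cells, which the rule favours. Fos, with 16.2, 12.5 and 14.1, and Junb, with 6.02, 4.63 and 4.74, are immediate early genes. Tsc22d1, Apoe, Malat1 and Cyr61 completed the 12 highest genes, with values between 3.92 and 6.70. Apoe had means of 16.2, 17.8 and 14.4 UMIs per thinned cell and Malat1 of 14.6, 10.7 and 10.2. Both had a count in at least 97.2% of thinned cells. For the same relative spread a Fano factor rises with the mean, so this ranking mixes level and unevenness.

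**Figure D5:**
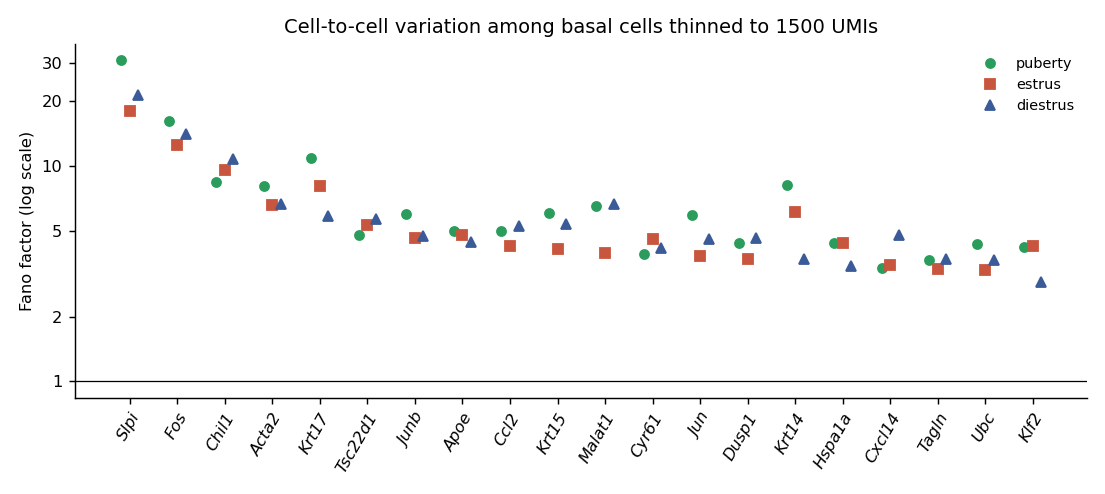
Fano factor (log axis) of the 20 genes with the highest smallest value over basal cells thinned to 1500 UMIs, with 1 point per library and a line at 1. Slpi lies highest, at 17.97 to 31.1, and Fos follows at 12.5 to 16.2.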

How the data were processed

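Mammary epithelial cells were profiled with the 10x Genomics Chromium 3′ platform. The authors, using a NextSeq 500, mapped reads to mm10 in Cell Ranger 2.0 and deposited raw counts of unique molecules per gene and barcode. The deposited barcodes were used as they stood. No doublet caller was run, and the member rule kept out 206 barcodes with basal and luminal genes together. The puberty labels state 5387 cells, against 5428 barcodes in the table.

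Counts were summed per class and library and scaled by TMM in edgeR 4.0.16 (R 4.3.3). Cells were handled in Python 3.11.15 with NumPy 2.4.6, SciPy 1.17.1 and pandas 2.3.3. Ratios are log2 with 1 CPM added, for genes with a mean of at least 10 CPM over the compared sums. An exact sign-flip test over 3 libraries cannot go below p = 0.25, and none was run. Cells were thinned to 1500 UMIs for the Fano factor (mean of at least 0.1 UMI), which left out 32, 60 and 16 basal cells. Ratios and Fano factors were tested on simulated data. RefSeq sequences came from GRCm38.p6, and uniqueness of the last 500 transcript bases was checked with runs of 31 bases.

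The members and gene lists were chosen with earlier results of these data known. Named genes were the rule genes, up to 4 per list by basal level, members that alone went against their list, the 12 highest and 8 lowest ratios, the 12 highest Fano factors and up to 6 list members per stage comparison. Other names were chosen after their values were seen. Results of a few listed genes are not reported here. Lists of keratinocyte, erythroid and cluster 5 genes gave 0, 0 and 4 higher and 1, 1 and 10 lower genes of 2, 2 and 23 considered, the last having been chosen by the study on related samples. Alternatives changed the scaling, pseudocount, level filter, weight and depth of cells, member rule, luminal comparator, puberty table, cycling cells and libraries.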

Additional observations from a re-analysis of the deposited data

Results flagged for a closer look

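The second puberty table, which entered only as an alternative, held 1023 basal members by the same rule, and it was set apart because it carries the signal in data outside the main values. It had 5400 barcodes, and 992 of these members were also members in the first table, which is 94.2% of those of the first. Only 3 members of the first table were luminal in the second. The tables count the same cells, and their totals per cell had a Pearson correlation of 0.997 across cells, so the second table is no replicate.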

How the results depend on the processing

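With no level filter, 1215 genes were higher and 1266 lower in basal cells. Leaving out each library in turn gave 652 to 695 higher genes and 753 to 867 lower genes. The other settings kept both counts within 1.5 times the values reported, from 541 to 797 higher and from 575 to 721 lower, including comparisons with LP-type and ML-type cells alone, which were chosen after seeing the data. Between stages, genes lower in diestrus than in estrus came to 316 with plain CPM. Genes lower at puberty came to 114 with plain CPM, 35 with a pseudocount of 5 CPM, 163 with thinned cells and 133 without cycling cells. The basal share at puberty was 17.4% with at least 5 rule genes and 17.2% with the rule applied to thinned cells, and that of diestrus 39.8% with thinned cells. The number of genes with a Fano factor of at least 2 was 28 at 1000 UMIs per cell, with 11 of the 12 highest genes shared, and 56 without cycling cells, with 10 shared. Against the stricter luminal comparator, 4 low genes turned to ratios of 1.21 (Mfap5), 1.30 (Col1a2), 0.52 (Col1a1) and 0.037 (Col3a1). The cause of these changes was not tested. Plain CPM moved the median gene from -0.08 to 0.04 between basal and luminal cells.

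Each basal to luminal ratio was taken within its library. No paired analysis was possible between stages because each had 1 library. The number of libraries limits every value between stages, and depth limits genes near 10 CPM.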
